A study of Mus musculus with 8 samples.

Results

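The genes described here carry out or regulate expression of the mitochondrial genome. They were chosen by name, as 34 genes in 6 roles, without use of measured values. The roles are 5 nuclear regulators, 3 genes of mitochondrial DNA (mtDNA) replication, 4 of mtDNA transcription, 2 that bind mitochondrial mRNA, 5 translation factors and 15 mitochondrial tRNA synthetases. A gene was measured through the probe sets annotated to it alone, and all 34 were found among the 18193 genes of the table. They had 68 probe sets, and the one with the highest mean over the 8 arrays stands for the gene.

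Inguinal white adipose tissue, the subcutaneous fat of the groin, was taken from 4 male mice lacking the lysophosphatidic acid receptor 4 (LPA4-KO, Lpar4 -/Y, called KO) and from 4 male wild-type (WT) littermates. All 8 mice had a C57BL/6 background, were 12 weeks old and ate standard chow, and each gave 1 biotin-labelled RNA sample on 1 expression array. The labels name no tissue-specific driver for the Lpar4 deletion, and the tissue was snap-frozen. All levels are on a log2 scale, and a difference is the KO mean less the WT mean.

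Mitochondria hold a small circular genome that encodes core subunits of the respiratory chain, together with the ribosomal and transfer RNAs needed to make them. Everything else needed to copy, transcribe and translate it is encoded in the nucleus. Transcription uses the polymerase POLRMT with the factors TFAM and TFB2M, the LRPPRC and SLIRP complex protects the resulting mRNAs, and translation uses bacterial-type factors and a dedicated set of tRNA synthetases. Nuclear factors such as NRF1, GABPA and ESRRA, with coactivators of the PGC-1 family, bind or act at many of these nuclear genes. In fat, mitochondrial content is known to differ between white and thermogenic adipocytes and to rise when adipocytes differentiate.

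Several checks of the arrays bear on the values below. Of the 3 Lpar4 probe sets, 1 had 5.74, 5.91, 5.81 and 5.78 in KO arrays 1 to 4, against 6.80, 6.98, 6.89 and 7.04 in WT arrays 1 to 4. The other 2 were higher in KO by 0.53 and 0.71. Which of the 3 lies in the deleted part is not known here. Adipoq, the adipocyte hormone adiponectin, had 13.94 ± 0.08 in KO and 13.70 ± 0.06 in WT (SD, n = 4 each), and Ucp1, the uncoupling protein of thermogenic fat, was near constant at 6.17 (SD over the arrays under 0.01). The mean of 9 measured adipocyte markers, of 10 listed, lay between 11.60 and 11.76 in KO and between 11.53 and 11.62 in WT, and that of 7 thermogenic markers between 6.98 and 7.20 in KO and between 6.91 and 7.08 in WT. The mean of 12 skeletal muscle markers was 8.91, 9.55, 6.51 and 7.25 in KO 1 to 4, against 9.18, 8.90, 6.54 and 7.07 in WT 1 to 4, so numbers 1 and 2 were high and numbers 3 and 4 low in both genotypes. Means of 8 macrophage markers ran from 9.26 to 9.44 in KO and from 8.44 to 9.69 in WT, and those of 7 endothelial markers from 9.18 to 9.43 in KO and from 9.39 to 9.67 in WT. Means of 7 progenitor and fibroblast markers ran from 9.38 to 9.57 in KO and from 8.75 to 9.54 in WT. The 4 measured lymphocyte markers gave 6.65 to 6.74 in KO and 6.51 to 6.70 in WT, and the 2 measured erythrocyte markers 6.98 to 7.11 in KO and 6.73 to 7.09 in WT. The mean of the 6 mammary epithelial markers was 6.47 on every array, and 0 of the 6 had an SD of 0.01 or more. Of the measured thermogenic, lymphocyte and erythrocyte markers, 3 of 7, 1 of 4 and 1 of 2 did. The markers below that SD are no measure of whether their RNA differed between the genotypes. In such bulk tissue, fewer cells of a type and less RNA per cell cannot be told apart. KO 1 stood apart in signal near the 3′ end less that near the 5′ end, with 1.33 for actin, against 1.11 to 1.22 in KO 2 to 4 and 1.08 to 1.25 in WT, and with 0.87 for Gapdh, against 0.63 to 0.70 in KO 2 to 4 and 0.66 to 0.77 in WT. KO 1 was also the highest array for Polrmt, Gfm1, Mtif2 and Lars2. Without it 1 member, Lrpprc, was higher over all genes in limma (adjusted p = 0.0423) and 3 among varying genes. In either direction, 131 of all 18193 genes and 700 of the 5173 varying genes then passed. Leaving out KO 2 or any single WT array gave the same members higher, and leaving out KO 3 gave 0 over all genes. The fewer calls were thus not particular to KO 1. The array's 3 probe sets for 18S ribosomal RNA read higher on every KO array than on any WT array. Their genotype means differed by 0.44, 0.28 and 0.22. The part of this shift, or of the marker differences above, in the results below was not tested.

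Most of the 34 genes had almost the same deposited value on all 8 arrays. For 25 of them the SD over the 8 arrays was between 8.62e-05 and 0.0037, called near constant here (SD under 0.01), whereas the other 9 had an SD between 0.05 and 0.18 and are called varying. Of all 18193 genes, 28.4% varied, and of the 34 genes 26.5% did. How the near-constant values arose is not known here, so a near-constant gene gives no measure of whether its RNA differed between the genotypes. By role, the varying genes were 0 of 5 nuclear regulators, 0 of 3 replication genes, 2 of 4 transcription genes, 2 of 2 mRNA-binding genes, 4 of 5 translation factors and 1 of 15 tRNA synthetases.

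**Figure D1:**
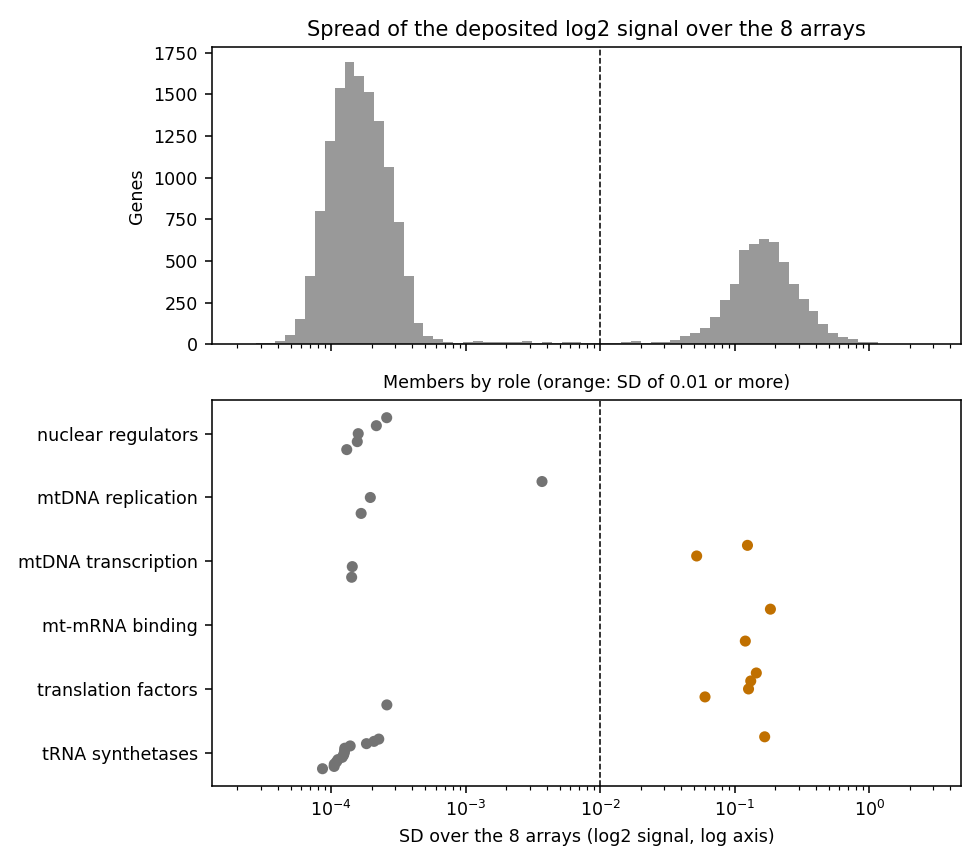
Top, number of genes by the SD of their log2 signal over the 8 arrays (log axis), with the limit of 0.01 dashed; bottom, the 34 genes by role on the same axis, with varying genes in orange. The genes fall into 2 separate humps, and 25 of the 34 lie left of the limit.

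Promoters are shown for 6 of the 8 varying members with higher means in KO, because nuclear regulators among the 34 are known to bind such promoters. The windows of the other 2, Lars2 and Gfm2, held none of the motifs searched and are not printed. RefSeq windows of 250 bases before to 50 after the gene start (GRCm38.p6) were matched for 31 of the 34 genes by symbol, the others being Ppargc1b, Pars2 and Hars2. Each was searched on both strands for CCGGAAG (the ETS motif that GABPA binds), GCGCATGC (the NRF1 core), AAGGTCA (ERRA), AAGATGGCG (YY1) and CACGTG (E-box), and no matches shared bases. The following windows run from 150 bases before to 10 after the start, 5′ to 3′ on the gene's strand, with matches in capitals. The first has no match. The last belongs to Tfam, a near-constant gene with the same ETS motif.
Lrpprc: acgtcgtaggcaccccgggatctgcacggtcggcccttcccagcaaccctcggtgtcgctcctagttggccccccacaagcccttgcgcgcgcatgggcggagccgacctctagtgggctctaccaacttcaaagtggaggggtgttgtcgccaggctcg
Slirp: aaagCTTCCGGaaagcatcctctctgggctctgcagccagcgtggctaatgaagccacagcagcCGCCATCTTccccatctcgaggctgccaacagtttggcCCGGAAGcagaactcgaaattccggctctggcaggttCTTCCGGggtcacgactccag
Polrmt: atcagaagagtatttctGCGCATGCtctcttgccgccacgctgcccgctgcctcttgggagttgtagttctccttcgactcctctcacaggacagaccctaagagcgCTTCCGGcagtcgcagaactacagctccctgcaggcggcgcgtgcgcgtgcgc
Gfm1: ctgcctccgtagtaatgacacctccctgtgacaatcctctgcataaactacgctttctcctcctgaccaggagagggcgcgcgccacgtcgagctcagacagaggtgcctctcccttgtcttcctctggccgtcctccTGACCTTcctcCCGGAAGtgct
Mtif2: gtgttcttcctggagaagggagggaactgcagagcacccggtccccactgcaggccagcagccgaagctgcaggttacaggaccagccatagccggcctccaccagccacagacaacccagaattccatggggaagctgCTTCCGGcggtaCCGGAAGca
Tufm: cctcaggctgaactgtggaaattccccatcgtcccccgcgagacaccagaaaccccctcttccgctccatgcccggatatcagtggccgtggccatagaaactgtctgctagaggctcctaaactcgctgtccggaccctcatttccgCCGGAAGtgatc
Tfam: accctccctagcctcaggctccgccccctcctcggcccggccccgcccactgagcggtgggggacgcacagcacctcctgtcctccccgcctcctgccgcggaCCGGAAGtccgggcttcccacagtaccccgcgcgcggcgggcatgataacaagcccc

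In GRCm38.p6 these windows, which lie at the annotated gene starts, are chr17:84790777-84790936 (minus strand) for Lrpprc, chr12:87443746-87443905 (plus strand) for Slirp, chr10:79746572-79746731 (minus strand) for Polrmt and chr3:67429965-67430124 (plus strand) for Gfm1. The others are chr11:29526247-29526406 (plus strand) for Mtif2, chr7:126487205-126487364 (plus strand) for Tufm and chr10:71238035-71238194 (minus strand) for Tfam. Counting the start as 1, the ETS matches began at positions -146, -48 and -11 in Slirp, with a YY1 match at -86. In Polrmt the ETS match began at -43 and the NRF1 match at -133, and in Gfm1 the ETS match began at -1 and the ERRA match at -12. Mtif2 had ETS matches at -11 and 2, Tufm had 1 at -2 and Tfam had 1 at -47.

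The ETS motif was present in 13 of the 31 genes (41.9%), against 9.93% of all 27025 genes with a window and 8.86% of all 32851 windows. The NRF1 core was present in 6 (19.4%, against 3.05% of all genes), namely Esrra, Polrmt, Rars2, Tfb2m, Vars2 and Wars2. The YY1 motif was present in 5 (16.1%, against 1.64%), namely Aars2, Gabpa, Slirp, Wars2 and Yars2. ERRA and E-box motifs were each in 1 gene, Gfm1 and Ears2 (3.23%, against 5.38% and 8.09% of all genes). The ETS motif was in 5 of the 8 varying genes with higher means in KO and in 8 of the 22 near-constant genes with a window, so it was found on both sides of the division. These are matches of letters and no measure of binding.

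**Figure D2:**
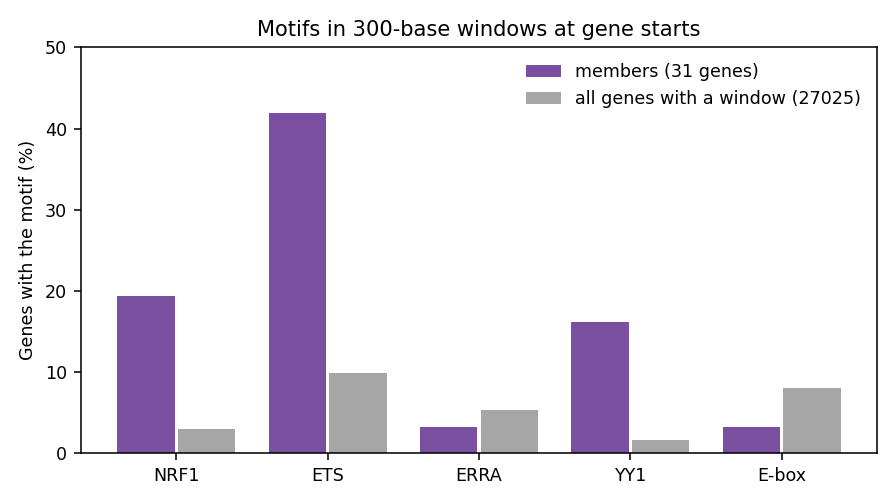
Share of genes (%, vertical axis) whose promoter window holds each motif, for the 31 members with a window and for all 27025 genes with one. The ETS bar is at 41.9% for the members and at 9.93% for all genes, and the ERRA and E-box bars of the members are below those of all genes.

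Among the 34 genes, 3 rose in KO over all genes tested: Lrpprc, the mitochondrial elongation factor Gfm1 and the leucyl-tRNA synthetase Lars2. They stood at 1.26, 1.17 and 1.22 times their WT signal. In the limma test across all genes, 2.39% of 18193 genes were higher and 1.64% lower in KO at an adjusted p below 0.05. Of the genes called, 143 were near constant. Among the 5173 varying genes, this same fit called 344 higher and 246 lower. The only member called lower was Polg2, a near-constant gene with a difference of -0.00036. Of the 9 varying members, 8 had higher means in KO (88.9%, against 52.3% of all varying genes). The median difference of the 9 was 0.19, against 0.01 over all varying genes. All KO arrays lay above all WT arrays in 6 of the 9 (Lrpprc, Gfm1, Lars2, Polrmt, Mtif2 and Gfm2), against 18.2% of all 5173 varying genes, and 0 of the 9 lay below in the same way, against 15% of varying genes. The median difference over all 34 genes was 0.00017, because most were near constant. The replicate number, which is not shown to mark a pair, ended every call across all genes when it entered as a block. In limma 0 of 18193 genes were then higher and 0 lower (0%), with 3703 at an unadjusted p under 0.05.

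Both genes that bind mitochondrial mRNA varied. Lrpprc, a pentatricopeptide repeat protein needed for the stability of mitochondrial mRNAs, had 8.16, 8.23, 8.26 and 8.18 in KO 1 to 4, against 7.94, 7.88, 7.84 and 7.84 in WT 1 to 4. The genotypes were apart by 0.22 at their closest arrays, the widest gap of the varying members. Its difference was 0.33 ± 0.03 (SE, n = 4 each), for which limma gave an adjusted p of 0.0140 across all genes. It was 0.106 with the replicate block, 0.00551 among varying genes only (14.9% of which were higher) and 0.0286 among varying genes with the block (10.3% of which were higher). Leaving out KO 3 ended the call across all genes (limma adjusted p = 0.0513), whereas the call among varying genes was kept whichever array was left out (highest limma adjusted p 0.0214).

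Slirp, the RNA-binding partner of LRPPRC, had 9.42, 9.48, 9.40 and 9.28 in KO 1 to 4, against 9.25, 9.28, 9.18 and 9.14 in WT 1 to 4. KO 4 and WT 2 lay together at 9.28, so the genotypes met at that level. The difference of 0.18 ± 0.05 did not pass over all genes (limma adjusted p = 0.106) or among varying genes (0.0508), and passed among varying genes with the replicate block (0.0489). At each of the 4 replicate numbers, which are not shown to mark pairs, the KO array was the higher for Slirp. The same held for all 8 varying members with higher KO means.

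**Figure D3:**
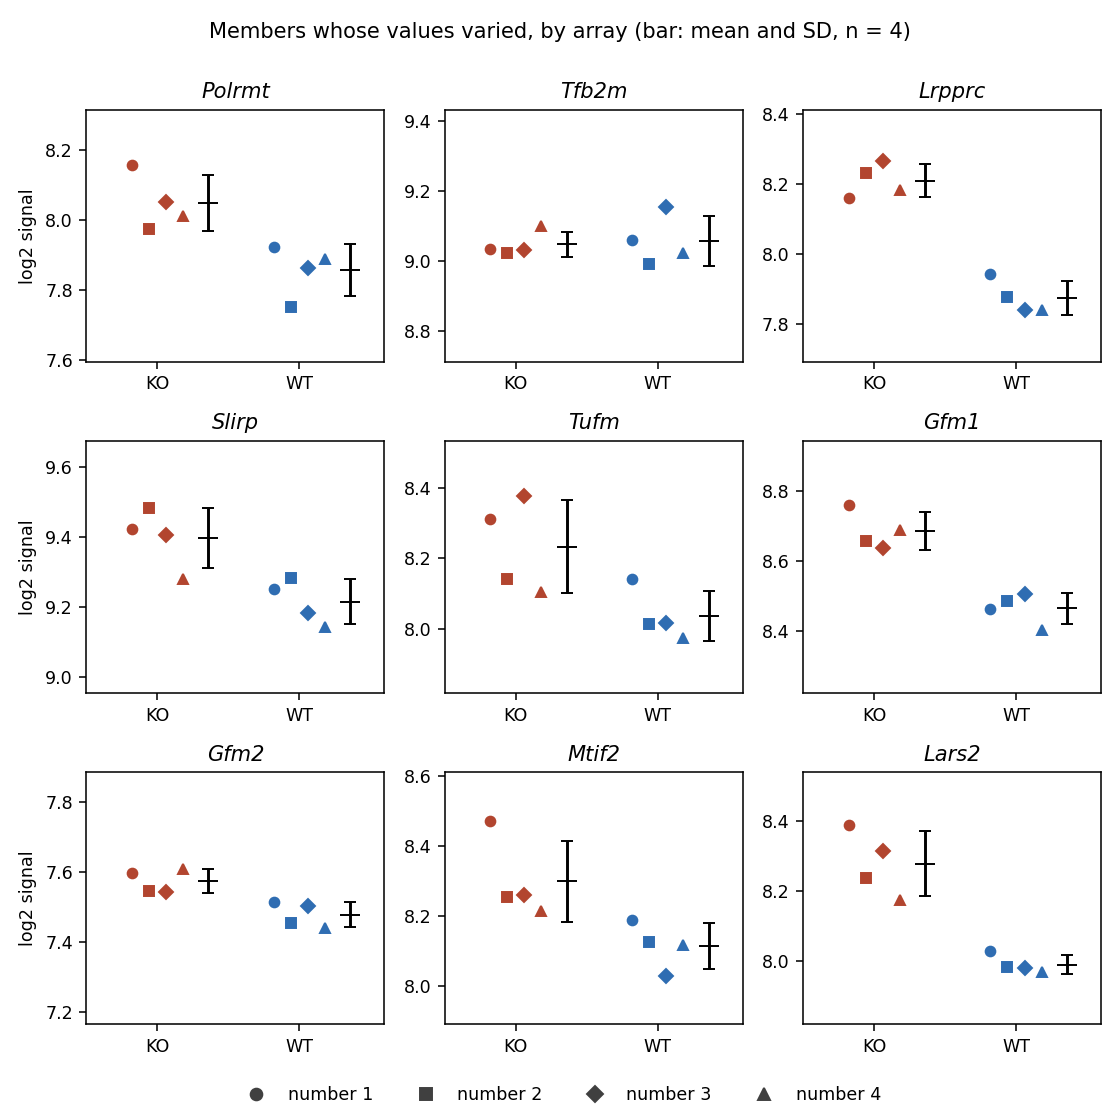
The log2 signal (vertical axis, equal span in each panel) of the 9 varying members on each KO array (left, red) and WT array (right, blue), with the symbol giving the replicate number and the bar the mean and SD (n = 4). KO and WT points do not overlap in 6 panels, and those of Slirp, Tufm and Tfb2m do.

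Of the 5 translation factors, Gfm1 was the one that rose over all genes. Gfm1, which moves the mitochondrial ribosome along the mRNA, had 8.76, 8.66, 8.64 and 8.69 in KO 1 to 4, against 8.46, 8.49, 8.51 and 8.40 in WT 1 to 4. The lowest KO array was 0.13 above the highest WT array. Its difference was 0.22 ± 0.03 (SE), for which limma gave an adjusted p of 0.0319 across all genes, 0.142 with the replicate block, 0.0162 among varying genes and 0.0471 there with the block. Over all genes the call was lost whichever array was left out (limma adjusted p 0.0600 to 0.0781), and among varying genes it was kept without each of the 8 (0.0267 to 0.0397). Its probe set 1416570_s_at has probes shared between transcripts by its suffix, so related transcripts can contribute, and its other probe set was near constant.

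The initiation factor Mtif2 had 8.47, 8.25, 8.26 and 8.22 in KO 1 to 4, against 8.19, 8.13, 8.03 and 8.12 in WT 1 to 4. KO 1 was the highest array, and the genotypes were apart by 0.02. The difference of 0.18 ± 0.06 missed the threshold over all genes (limma adjusted p = 0.162), among varying genes (0.0744) and there with the replicate block (0.0674).

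Gfm2, which acts in taking the mitochondrial ribosome apart after termination, had 7.60, 7.55, 7.54 and 7.61 in KO 1 to 4, against 7.51, 7.46, 7.50 and 7.44 in WT 1 to 4. The genotypes did not overlap, with a closest distance of 0.03. The difference was 0.10 ± 0.02, the smallest of the 8 members with higher KO means, and did not pass over all genes (limma adjusted p = 0.0815) or among varying genes (0.117). Mtif2, Gfm2, Polrmt, Lrpprc, Gfm1 and Lars2 each gave an exact permutation p of 0.0286 (two-sided), the smallest that 4 against 4 arrays can give.

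Tufm, the factor that delivers charged tRNAs to the mitochondrial ribosome, had 8.31, 8.14, 8.38 and 8.10 in KO 1 to 4, against 8.14, 8.01, 8.02 and 7.97 in WT 1 to 4 by its brightest probe set. KO 4 lay below WT 1 and KO 2 lay level with it, so the genotypes overlapped. The difference of 0.20 ± 0.07 did not pass over all genes (limma adjusted p = 0.179) or among varying genes (0.0791). That probe set, 1447780_x_at, can cross-hybridise by its suffix. A second probe set of Tufm, 1433952_at, had 7.98, 7.99, 8.08 and 7.98 in KO 1 to 4, against 7.81, 7.78, 7.79 and 7.75 in WT 1 to 4. Here the genotypes were separate, with a difference of 0.23 ± 0.03 and, when every one of the 45101 probe sets was tested, an adjusted p of 0.0243 in limma. The other 2 probe sets of Tufm were near constant. Tsfm, the exchange factor of TUFM, was near constant at 8.10.

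Only 1 of the 15 mitochondrial tRNA synthetases varied. Lars2, which charges mitochondrial leucine tRNAs, had 8.39, 8.24, 8.31 and 8.17 in KO 1 to 4, against 8.03, 7.98, 7.98 and 7.97 in WT 1 to 4. The WT arrays lay close together (SD 0.03) and the KO arrays were more spread (SD 0.09), with a gap of 0.15 between the genotypes. The difference was 0.29 ± 0.05 (SE), for which limma gave an adjusted p of 0.0350 across all genes, 0.105 with the replicate block, 0.0128 among varying genes and 0.0318 there with the block. Over all genes the call was kept without KO 4 (0.0398) and lost without any of the other 7 arrays (limma adjusted p 0.0611 to 0.102), and among varying genes it was kept in all 8 cases (0.0155 to 0.0403). Its other 2 probe sets were near constant. The remaining 14 synthetases, for alanine (Aars2), glutamate (Ears2), phenylalanine (Fars2), histidine (Hars2), isoleucine (Iars2), methionine (Mars2), asparagine (Nars2), proline (Pars2), arginine (Rars2), serine (Sars2), threonine (Tars2), valine (Vars2), tryptophan (Wars2) and tyrosine (Yars2), were near constant, with differences of at most 0.00022. Mars2 was also dim, at percentile 10.3 of all probe sets.

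Of the 4 genes of mtDNA transcription, Polrmt and Tfb2m varied. Polrmt, the single-subunit mitochondrial RNA polymerase, had 8.16, 7.97, 8.05 and 8.01 in KO 1 to 4, against 7.92, 7.75, 7.86 and 7.89 in WT 1 to 4. Every KO array was above every WT array, by 0.05 at the closest. The difference of 0.19 ± 0.05 did not pass over all genes (limma adjusted p = 0.0999) but did among varying genes (0.0461, and 0.0485 once the replicate number was a block). Among varying genes the call was lost whichever array was left out (limma adjusted p 0.0525 to 0.101). The second probe set of Polrmt was near constant.

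Tfb2m, which opens the promoter for POLRMT, had 9.03, 9.02, 9.03 and 9.10 in KO 1 to 4, against 9.06, 8.99, 9.15 and 9.02 in WT 1 to 4. The genotypes overlapped throughout. The difference was -0.01, with a 95% interval from -0.10 to 0.08 and a limma adjusted p of 0.916, so a shift as large as that of Lrpprc lay outside the interval. Tfam, which packages mtDNA and starts transcription, was near constant at 8.42, and Tfb1m, which methylates the small mitochondrial ribosomal RNA, at 7.75.

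The replication and regulatory genes gave no varying member. Polg, the catalytic subunit of the mtDNA polymerase, had the highest SD of the near-constant genes (0.0037) and a difference of 0.0038, and the varying member with the lowest SD was Tfb2m (0.05), so no member lay close to the limit of 0.01. Its accessory subunit Polg2 and the single-stranded DNA-binding protein Ssbp1 were near constant at 7.77 and 9.64. The transcription factors Nrf1 (7.34), Gabpa (9.16) and Esrra (7.79) were near constant, as were the PGC-1 family coactivators Ppargc1b (8.54) and Pprc1 (7.51). The largest difference in size among the 5 was -0.000354, for Nrf1. In limma 0 of 5 passed, where 2.39% of all genes were higher and 1.64% lower. As all 5 were near constant, this is no measure of whether their RNA differed.

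**Figure D4:**
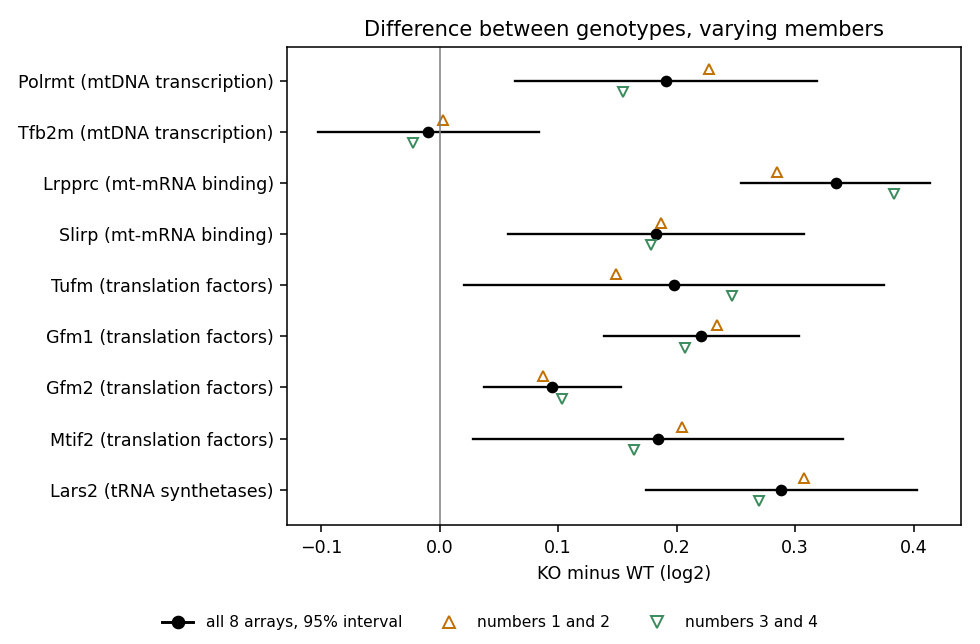
KO minus WT difference (log2, horizontal axis) of the 9 varying members with the limma 95% interval (black), and the same difference within numbers 1 and 2 (orange) and within numbers 3 and 4 (green). The coloured points of 8 members are right of 0 in both subsets, and Tfb2m straddles 0.

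The sizes of the differences are given for the arrays with high and with low skeletal muscle markers. Their direction is no further test, since 6 of the 8 genes with higher KO means had no overlap between genotypes. Within numbers 1 and 2, where muscle markers were high, Lrpprc was 0.28, Lars2 0.31, Gfm1 0.23 and Polrmt 0.23 higher in KO. Within numbers 3 and 4, where they were low, the differences were 0.38 for Lrpprc, 0.27 for Lars2, 0.21 for Gfm1 and 0.15 for Polrmt. Slirp differed by 0.19 and 0.18, Mtif2 by 0.20 and 0.16, Tufm by 0.15 and 0.25, and Gfm2 by 0.09 and 0.10 in these subsets. In limma, 0 of all 18193 genes passed within either subset of 4 arrays, members included. At an unadjusted p under 0.05 were 8 members (23.5%, against 11.4% of all genes) in numbers 1 and 2 and 7 (20.6%, against 11.1%) in numbers 3 and 4. These counts were not split into near-constant and varying members. With all 8 arrays, 17 members were at that level in limma, of which 8 varied. The shares are therefore no measure of a difference repeated in the subsets.

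The genes around the members were taken from 6 further lists of mitochondrial gene expression, of which 88 of 95 genes were measured and 25 varied (28.4%). Over all genes 1 of the 88 rose and 0 fell in the limma test, where 2.39% of all genes were higher and 1.64% lower. Among varying genes 5 rose (Ptcd3, Fastkd2, Mpv17, Nsun4 and Qrsl1) and 1 fell (Oxa1l), where 14.9% of varying genes were higher and 12.2% lower. With the replicate block, 2 were higher (Ptcd3 and Fastkd2) and 2 lower (Samhd1 and Cdk5rap1) among varying genes, against 10.3% and 9.24%. Of the 25 varying genes, 18 had higher means in KO (72%, against 52.3% of all varying genes), and the median difference of the 25 was 0.12. All KO arrays lay above all WT arrays in 8 of the 25 (18.2% of all varying genes) and below them in 1 (15% of all varying genes). Without KO 1, 0 genes of the 6 lists were higher and 0 lower in limma, over all genes or among varying genes. Over all genes, 0 were higher whichever array was left out, except WT 3, without which 1 was higher. Among varying genes, leaving out any array other than KO 1 gave 1 to 4 higher and 0 lower.

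The RNA processing list held the most varying genes, 9 of 23 measured, 8 of them with higher KO means. Ptcd3, a pentatricopeptide repeat protein of the small mitochondrial ribosomal subunit, had 8.84, 8.70, 8.70 and 8.80 in KO 1 to 4, against 8.62, 8.48, 8.49 and 8.50 in WT 1 to 4. It was the only gene of the 6 lists to pass over all genes, with a difference of 0.24 ± 0.05 (SE) and a limma adjusted p of 0.0499, or 0.0775 with the replicate block. In the fit of varying genes it was 0.0201, or 0.0330 once blocked.

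Fastkd2, which binds the large mitochondrial ribosomal RNA, had 7.52, 7.49, 7.58 and 7.56 in KO 1 to 4, against 7.33, 7.28, 7.46 and 7.29 in WT 1 to 4. The genotypes were separate, and the difference of 0.20 ± 0.04 passed in the fit of varying genes (limma adjusted p = 0.0295, or 0.0481 once blocked), but not over all genes (0.0621). Pnpt1, the mitochondrial polynucleotide phosphorylase, and Grsf1, a protein of mitochondrial RNA granules, also had separate genotypes, with differences of 0.15 and 0.14, and did not pass among varying genes (limma adjusted p = 0.0578 and 0.0657). Tefm, the elongation factor of POLRMT, was near constant at 7.58.

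Single genes stood out in the other lists. Mpv17, an inner membrane protein needed to keep mtDNA, had 8.86 ± 0.08 in KO and 8.67 ± 0.03 in WT (SD, n = 4 each), and passed among varying genes (limma adjusted p = 0.0325) but not with the block (0.0655) or over all genes (0.0629). Nsun4, a methyltransferase for mitochondrial ribosomal RNA, had 7.96 ± 0.09 in KO and 7.77 ± 0.05 in WT, and passed among varying genes (0.0427) but not with the block (0.0656) or over all genes (0.0927). Qrsl1, a subunit of the enzyme that makes mitochondrial glutaminyl-tRNA, had 7.85 ± 0.09 in KO and 7.60 ± 0.11 in WT, and behaved likewise (0.0413 among varying genes, 0.0732 with the block, 0.112 over all genes). By its suffix, the probe set of Qrsl1 shares probes between transcripts. Pus1, which makes pseudouridine in tRNAs, differed by 0.03 with separate genotypes and did not pass over all genes (limma adjusted p = 0.0668) or among varying genes (0.554).

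Lower values were seen for a few genes. Oxa1l, the insertase that places mitochondrially made proteins into the inner membrane, had 7.83, 7.88, 7.96 and 7.95 in KO 1 to 4, against 8.22, 8.03, 8.05 and 8.07 in WT 1 to 4. All KO arrays were below all WT arrays, and the difference of -0.19 ± 0.05 passed among varying genes (limma adjusted p = 0.0471) but not with the block (0.103) or over all genes (0.101). Samhd1, which breaks down DNA precursors, and Cdk5rap1, which modifies mitochondrial tRNAs, differed by -0.25 and -0.46 and passed only among varying genes with the block (limma adjusted p = 0.0493 and 0.0468). Their genotypes overlapped.

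In the coregulator list, 5 of 15 measured genes varied and 0 passed in limma, where 2.39% of all genes were higher and 1.64% lower. The PGC-1 family coactivator Ppargc1a had 7.29, 7.28, 7.24 and 7.10 in KO 1 to 4, against 7.30, 7.14, 7.59 and 7.29 in WT 1 to 4. Its difference was -0.10 ± 0.10 (limma adjusted p = 0.614), split into 0.07 for the arrays numbered 1 and 2 and -0.27 for those numbered 3 and 4. Sirt3, the mitochondrial deacetylase, was 0.13 higher (0.241) and the acetyltransferase Crebbp differed by -0.07 (0.300), neither passing in limma. The mtDNA helicase Twnk (7.81), the DNA ligase Lig3 (7.49), the translation factor Guf1 (7.01), the lysyl-tRNA synthetase Kars (8.81) and the cysteinyl-tRNA synthetase Cars2 (7.27), all from the 6 lists, were near constant.

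**Figure D5:**
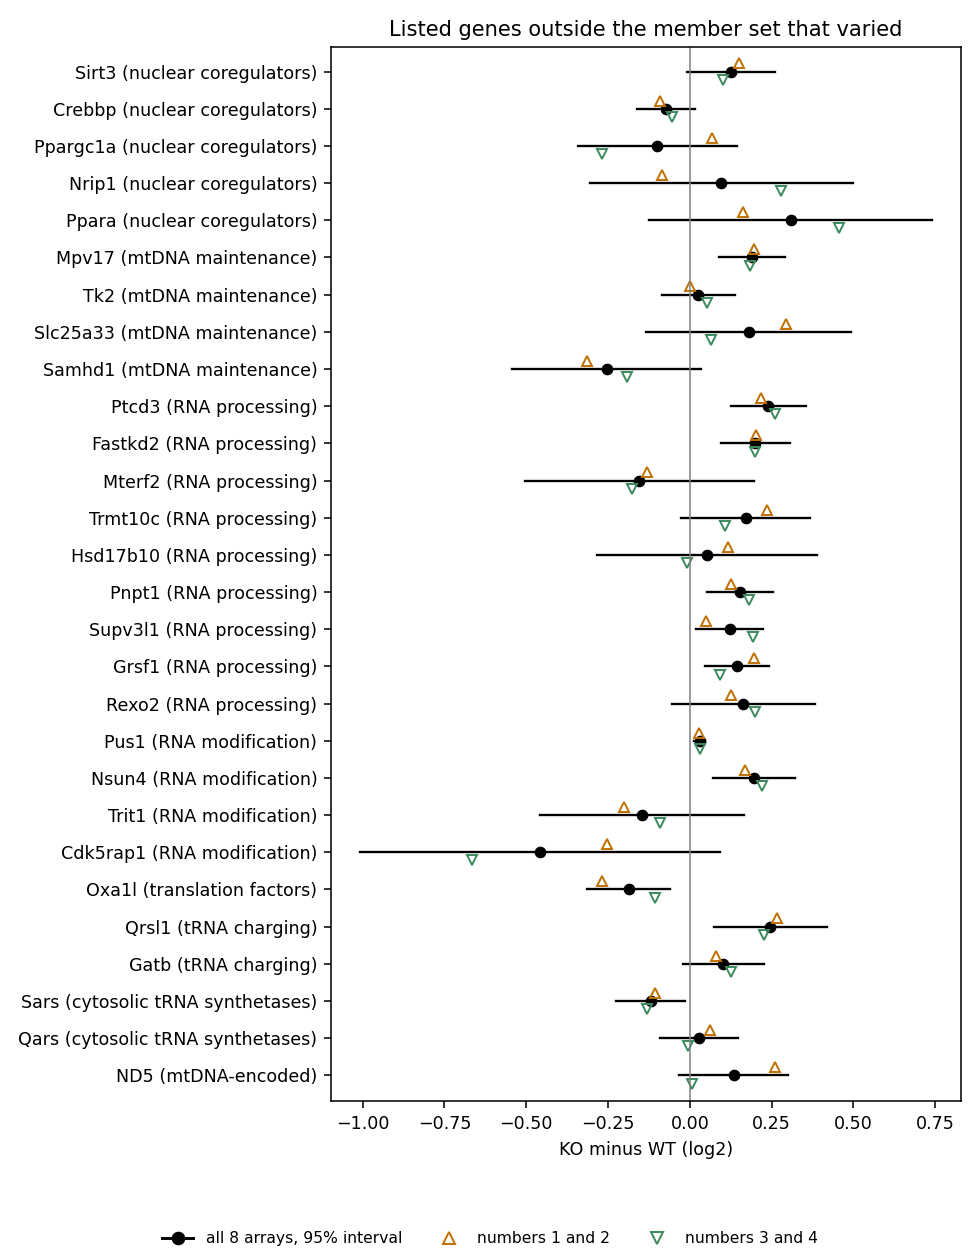
KO minus WT difference (log2, horizontal axis) of each varying gene of the 6 further lists, of the cytosolic tRNA synthetases and of ND5, with the limma 95% interval (black) and the values within numbers 1 and 2 (orange) and numbers 3 and 4 (green). Ptcd3, Fastkd2, Mpv17, Nsun4 and Qrsl1 lie right of 0 with both coloured points, and Oxa1l lies left of it. Other genes also have both coloured points on the same side, such as Pnpt1 and Grsf1 on the right and Samhd1 and Cdk5rap1 on the left.

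Of the 15 genes of the mitochondrial genome on the list, 1 was measured. ND5, a complex I subunit made inside mitochondria, had 11.81, 11.71, 11.53 and 11.69 in KO 1 to 4, against 11.53, 11.48, 11.54 and 11.66 in WT 1 to 4. The genotypes overlapped, the difference was 0.13 ± 0.07 (limma adjusted p = 0.309, exact permutation p = 0.0857), and it came to 0.26 between the arrays numbered 1 and 2 but 0.01 between the rest. The cytosolic tRNA synthetases, which charge tRNAs outside mitochondria, had 17 of 18 genes measured, 2 varying and 0 passing in either direction. Over all genes, 2.39% were higher and 1.64% lower in limma. Of the 17, the seryl-tRNA synthetase Sars differed by -0.12 (limma adjusted p = 0.175), and the threonyl-tRNA synthetase Tars was near constant.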

How the data were processed

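RNA from 8 mice (100 ng each, biotin-labelled) was hybridised to Affymetrix 3′ expression arrays with 45101 probe sets. The authors deposited log2 values per probe set (4.93 to 14.3, array medians 6.73 to 6.74), made with R 2.14.0 per the submitters' processing notes. How they corrected background, normalised and summarised probes is not stated in the labels or headers, and scanner intensities were not used here. Of the probe sets, 34945 name 1 gene and 932 several, which were left out, and 78.7% have an SD under 0.01 over the arrays.

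Genes were tested on the deposited log2 values with limma 3.58.1 (lmFit, eBayes) under R 4.3.3, and p-values were adjusted by Benjamini-Hochberg across the 18193 genes (threshold 0.05). The same fit was run on the 5173 varying genes, a selection on total spread to which the genotype itself contributes, and with the replicate number as a block. Arrays of the 2 genotypes that share a number deviated together from their genotype means (r = 0.315, 0.486, 0.189 and 0.244). Correlations between arrays of unlike numbers are not given here, so these values do not show that a number marks a pair. The labels do not say what a number marks. The script was tested on simulated data. Precision is limited by 4 arrays per genotype.

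The rule that named the members used no measured values. The further lists were chosen with earlier results of these data known. Every member is named. Of each further list, up to 4 genes with the smallest p passing over all genes are named, or up to 2 with the smallest p if fewer than 2 passed, plus Ppargc1a, Twnk, Tefm and Cars2. Pnpt1, Grsf1, Samhd1 and Cdk5rap1 were named after their values were seen. Alternatives were other probe-set rules, filters, scalings, blocks, subsets and leaving out each array.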

Additional observations from a re-analysis of the deposited data

Results flagged for a closer look

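In 2 of the 50 groups of 4 arrays checked (25 genes in each genotype), 1 array stood far from the other 3 by Dixon's test, and chance gives about 1 in 20 groups. Tfb2m was 9.10 in KO 4, above 9.02 to 9.03 in the other KO arrays. Cdk5rap1 was 7.86 in KO 4, above 7.47 to 7.52 in the other KO arrays.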

How the results depend on the processing

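Over all genes 733 passed in limma, against 0 with the replicate block and 1402 among varying genes. Among varying genes 1417 passed when the block was the split into low (1, 2) and high (3, 4) numbers. Within numbers 1 and 2 or within numbers 3 and 4, 0 passed. With p adjusted over all 45101 probe sets, 480 genes passed by their brightest probe set, a setting called over every probe set below. Leaving out 1 array gave 10 to 253 over all genes and 636 to 1149 among varying genes (1108 without KO 2, 1114 without WT 4). Of the members, 3 were higher, against 0 with the replicate block and in either subset and 5 among varying genes with the block, and leaving out 1 array gave 0 to 2 (3 to 4 among varying genes). The 1 lower member, Polg2, was 0 with the replicate block, among varying genes with either block or none, after quantile scaling or median centring, and in either subset, and leaving out 1 array gave 0 to 1 (0 among varying genes). In the 6 further lists, 1 was higher, against 0 with either block, over every probe set and in either subset, 2 with probe sets averaged, 3 among bright genes, 5 among varying genes, 2 there with the replicate block and 6 there with the number block. Leaving out 1 array gave 0 to 1 higher (0 to 4 among varying genes). There 0 were lower, against 1 with probe sets averaged, 1 among varying genes and 2 there with the replicate block, and leaving out 1 array gave 0 to 1 (0 among varying genes). The Tfb2m difference ran from -0.032 to 0.023 when 1 array was left out (0.023 without WT 3, also among varying genes), and turned to 0.0032 within numbers 1 and 2, where that of Ppargc1a was 0.068. Across 29 alternatives, Lrpprc differed by 0.28 to 0.38 and lost its call in 4, Gfm1 by 0.11 to 0.24 (11 lost) and Lars2 by 0.10 to 0.32 (10 lost). The lowest values of Gfm1 and Lars2 came from averaging in their other probe sets, which were near constant and so lowered the mean difference. That of Lrpprc came from numbers 1 and 2 alone. The replicate block also ended the calls of Ptcd3 and Polg2 over all genes. Apart from this averaging and the fewer genes or arrays an alternative uses, the causes were not tested.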
